A study of Mus musculus with 24 samples.

Results

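The 5 genes described here are the adult haemoglobin genes Hba-a1, Hba-a2, Hbb-bs and Hbb-bt and the erythroid gene Alas2, taken from the 55385 genes of the count matrix by matching their Ensembl identifiers to gene symbols. All 5 had a row and all 5 passed the filter on low counts in each comparison. They were followed in the hippocampus (HIP) and entorhinal cortex (EC) of 6 Ts65Dn males and 6 wild-type (wt) littermate males aged 5 to 6 months, which gave 24 libraries, 1 per region and mouse. Ts65Dn mice carry an extra minichromosome with the Mmu16 interval from Mir155 to Zbtb21 joined to a centromeric piece of Mmu17 from Scaf8 to Pde10a, and none of the 5 genes lies in either piece. Both groups were untreated and came from crosses on an F1 B6C3B background, so alleles of C57BL/6J and of a sighted C3H line segregate in both. Whether the mice were perfused before dissection is not given in the sources used here.

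Haemoglobin is a tetramer of alpha-type and beta-type chains, each holding a haem, and it carries oxygen in red blood cells. Hba-a1 and Hba-a2 encode the adult alpha chain, and Hbb-bs and Hbb-bt the adult beta chain of mice with the single-type haplotype. The Hbb haplotype of the background strains differs, and the beta genes Hbb-b1 and Hbb-b2 had no row of counts. Reads from another haplotype could thus be counted at Hbb-bs or Hbb-bt, and their part in the counts of these genes was not tested. Alas2 encodes the erythroid form of 5-aminolevulinate synthase, which makes the first committed step of haem synthesis in red cell precursors, while Alas1 does so in other cells. Young red cells still hold globin mRNA, and globin mRNA has also been described in neurons and glia. In bulk tissue such as this, fewer cells of a type and less RNA per cell cannot be told apart.

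Hba-a1 (ENSMUSG00000069919) lies at chr11:32283511-32284465 on the plus strand and Hba-a2 (ENSMUSG00000069917) at chr11:32296489-32297298 on the plus strand, in GRCm38. Hbb-bs (ENSMUSG00000052305) lies at chr7:103826534-103828096 and Hbb-bt (ENSMUSG00000073940) at chr7:103812524-103813996, both on the minus strand. Alas2 (ENSMUSG00000025270) lies at chrX:150547375-150570638 on the plus strand. The members of each pair are nearly identical, so the bases that tell them apart decide where a read of 50 bases is counted. The coding sequences of Hba-a1 and Hba-a2, 426 bases each without the stop codon, differed at a single position (C381T, counted from the first base of the start codon in Hba-a1). Those of Hbb-bs and Hbb-bt, 441 bases each, also differed at a single position (C417T, counted in the same way in Hbb-bs). Both positions lie in exon 3 of 3, and the 41 coding bases around each are shown because they hold the only coding difference within each pair, which is in capitals.
Hba-a1: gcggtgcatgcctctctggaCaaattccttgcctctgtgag
Hba-a2: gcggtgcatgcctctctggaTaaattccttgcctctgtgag
Hbb-bs: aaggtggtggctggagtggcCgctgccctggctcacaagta
Hbb-bt: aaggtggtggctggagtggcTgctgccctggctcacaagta
The windows are chr11:32284323-32284363, chr11:32297140-32297180, chr7:103826672-103826712 and chr7:103812663-103812703, in the order shown. Of the 505 stretches of 50 bases in the Hba-a2 transcript, 66 (13.1%) occurred in no other annotated gene, against 211 of 650 (32.5%) for Hba-a1. The unique stretches were 198 of 579 (34.2%) for Hbb-bs and 273 of 654 (41.7%) for Hbb-bt. All other stretches of the 4 globin transcripts were shared within the pair. Alas2 had 1713 unique stretches of 1988 (86.2%). The counts of each globin gene therefore rest on a minority of its transcript, unless reads shared by a pair were also counted, and how such reads were handled is not given in the sources used here.

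Library totals ranged from 23128589 to 40476492 counts. Over 80 coding genes of the triplicated Mmu16 interval, the median fold against the wt mean of the same region was 0.982 to 1.01 in the wt libraries. It was 1.43 to 1.53 in 5 of the 6 Ts65Dn mice, but 1.02 in the HIP and 1.005 in the EC of the mouse labelled Ts65Dn replicate 3, which goes against that label. It kept its label here, and results are given without it as well. Markers of dentate granule cells summed to 242 to 416 CPM (counts-per-million after TMM scaling) in the HIP and to 12.4 to 16.2 CPM in the EC, and those of cortical neurons to 74.9 to 124 and 242 to 353 CPM.

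The 5 genes together took 0.00573% to 0.0519% of the counts of a library. Per kilobase of annotated exon, the mean level over the 24 libraries was 127 CPM for Hbb-bs, 44.0 for Hba-a1, 30.5 for Hbb-bt, 9.23 for Hba-a2 and 2.09 for Alas2. On this scale Hbb-bs was above Hba-a1 in 24 of 24 libraries, with a median ratio of 2.88. The other neighbours in this order overlapped, since Hba-a1 was above Hbb-bt in 17, Hbb-bt above Hba-a2 in 19 and Hba-a2 above Alas2 in 18 of 24 libraries. Since the members of a pair share most of their sequence, their levels are those of the reads assigned to each.

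**Figure D1:**
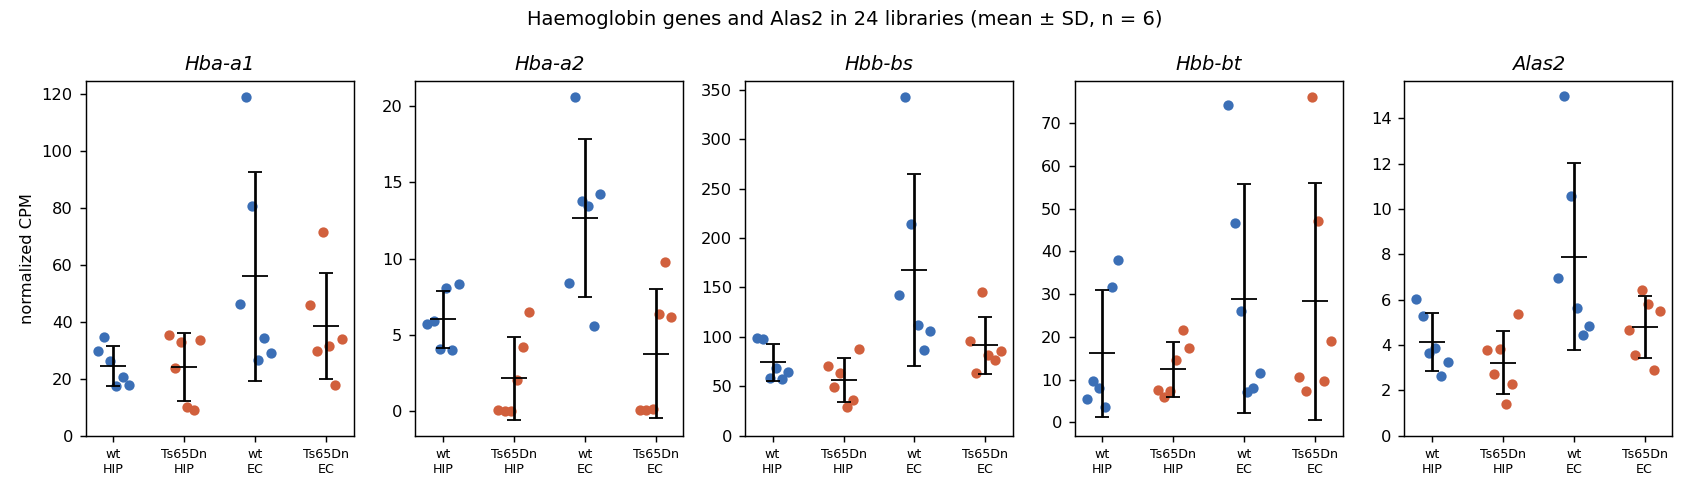
Normalized CPM of each gene in every library by genotype and region, on linear axes that differ between panels, with the mean and SD of 6 libraries in black. EC libraries reach the highest values of each gene, Hba-a2 lies at or near 0 in 3 Ts65Dn mice in both regions, and Hbb-bt spreads widely within each group.

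Hba-a1, Hba-a2, Hbb-bs and Alas2 were called lower in the HIP than in the EC. The HIP and EC of the same 12 mice were compared with a term for each mouse, in edgeR's quasi-likelihood test with Benjamini-Hochberg adjustment over 18109 genes. The brain regions differ in most genes, and 68.4% of all tested genes were called, 32.9% lower and 35.5% higher in the HIP. The 4 members called lower stand beside a background of 32.9%.

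Hbb-bs, the main beta chain gene, had 57.2, 66.3 and 98.7 CPM (lowest, median and highest of 6) in the wt HIP and 28.9, 56.3 and 88.2 CPM in the Ts65Dn HIP. In the EC it had 86.4, 128 and 343 CPM in wt and 63.7, 83.6 and 146 CPM in Ts65Dn. The HIP library was below the EC library in 11 of 12 mice, although the groups overlapped. The log2 fold change, HIP over EC, was -0.90 ± 0.15 (SE), a level 1.86-fold lower, with an adjusted p of 3.49e-05.

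Hba-a1, the main alpha chain gene by these counts, had 17.4, 23.4 and 34.5 CPM in the wt HIP and 8.96, 28.4 and 35.4 CPM in the Ts65Dn HIP. In the EC it had 26.7, 40.1 and 119 CPM in wt and 17.9, 32.8 and 71.4 CPM in Ts65Dn. It was lower in the HIP in 12 of 12 mice, with ratios of EC to HIP from 1.01 to 3.44. The log2 fold change was -0.87 ± 0.14 (SE), with an adjusted p of 2.55e-05.

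Alas2 had 2.65, 3.76 and 6.01 CPM in the wt HIP, 1.38, 3.26 and 5.36 CPM in the Ts65Dn HIP, 4.43, 6.29 and 14.965 CPM in the wt EC and 2.89, 5.09 and 6.44 CPM in the Ts65Dn EC. It was also lower in the HIP in 12 of 12 mice. The log2 fold change was -0.74 ± 0.15 (SE), with an adjusted p of 0.000353. Hba-a2 was lower in the HIP in 10 of 12 mice, with a log2 fold change of -0.98 ± 0.17 (SE) and an adjusted p of 7.41e-05. Without the term for each mouse the Hba-a2 call was lost (log2 fold change -0.95, adjusted p 0.149).

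Hbb-bt, the minor beta chain gene by these counts, was not called. It was lower in the HIP in 9 of 12 mice, and the ratio of EC to HIP ranged from 0.254 to 13.5. Its log2 fold change of -0.83 ± 0.47 (SE) was close in size to the others, but its spread was wider (adjusted p 0.129). It was called with no filter on low counts (adjusted p 0.0202), without wt replicate 5 (0.0400) and without wt replicate 6 (0.0456). When the counts of each pair were summed, the alpha pair (-0.88 ± 0.14, adjusted p 2.41e-05) and the beta pair (-0.86 ± 0.17, adjusted p 0.000258) were both lower in the HIP. The 4 calls were also made in the 6 wt mice alone, in the 6 Ts65Dn mice alone, and without the mouse labelled Ts65Dn replicate 3, where the log2 fold change of Hbb-bs was -0.87.

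No member was called between genotypes in either region. In the HIP, 1.04% of 17355 tested genes were called (0.542% higher and 0.501% lower in Ts65Dn), and 0 of the 5 members were, by edgeR or by DESeq2. In that region 0 of the 5 members passed an unadjusted p under 0.05, beside 14.8% of all tested genes. In the EC, 2.5% of 17049 genes were called (1.15% higher and 1.35% lower), and 0 members were, by edgeR or by DESeq2. At an unadjusted p under 0.05, 3 of the 5 members passed in the EC, beside 19.0% of all tested genes.

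The largest of these differences relative to its error was that of Hbb-bs in the EC. Of the 6 Ts65Dn EC libraries, 4 had less Hbb-bs than every wt EC library, and 0 had more. The mean was 167 ± 97.0 CPM in wt and 91.5 ± 28.6 CPM in Ts65Dn (SD, n = 6 each). The log2 fold change, Ts65Dn over wt, was -0.88 ± 0.30 (SE), with an unadjusted p of 0.0100 and an adjusted p of 0.126 in edgeR. Without the mouse labelled Ts65Dn replicate 3, whose EC had the highest Hbb-bs of the Ts65Dn mice, it was -1.06 with an adjusted p of 0.0747. Without wt replicate 2, whose EC had the highest Hbb-bs of all libraries, it was -0.54 with an adjusted p of 0.197. The corresponding values in the HIP were -0.40 ± 0.24 (SE) and an adjusted p of 0.474.

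Alas2 had a log2 fold change between genotypes in the EC of -0.73 ± 0.29 (SE, adjusted p 0.185) and in the HIP of -0.35 ± 0.28 (adjusted p 0.604). Hba-a1 had values of -0.55 ± 0.38 (adjusted p 0.465) in the EC and -0.01 ± 0.32 (adjusted p 0.990) in the HIP, where the sign of the latter turned with single mice left out. Hbb-bt had values of -0.05 ± 0.65 (adjusted p 0.982) in the EC and -0.39 ± 0.54 (adjusted p 0.790) in the HIP. None of these passed the adjusted threshold. Without wt replicate 2, the EC values were -0.45 for Alas2 (adjusted p 0.319) and -0.19 for Hba-a1 (adjusted p 0.805). The HIP value of Alas2 ranged from -0.55 to -0.20 with a mouse left out, nearest to 0 without Ts65Dn replicate 4 and farthest without Ts65Dn replicate 6. Hba-a2 had the largest fold changes, -1.77 ± 0.76 in the EC (adjusted p 0.218) and -1.49 ± 0.80 in the HIP (adjusted p 0.414), with 3 mice labelled Ts65Dn near 0, whose counts are given with the shares of the pair. Without Ts65Dn replicate 6 the HIP value of Hba-a2 was -2.27 (adjusted p 0.285). With the counts of each pair summed, the alpha pair had -0.71 ± 0.32 in the EC (adjusted p 0.238) and -0.21 ± 0.27 in the HIP (adjusted p 0.760). The beta pair had -0.72 ± 0.33 in the EC (adjusted p 0.256) and -0.40 ± 0.19 in the HIP (adjusted p 0.335).

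The Ts65Dn effect was not shown to differ between the regions. In the test of the genotype by region interaction, 0% of 18109 genes were called (0% in either direction) by edgeR and 0 by DESeq2, with 742 genes at an unadjusted p under 0.05. The 5 members had interaction estimates of 0.03 to 0.32 on the log2 scale and unadjusted p-values of 0.255 to 0.972.

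**Figure D2:**
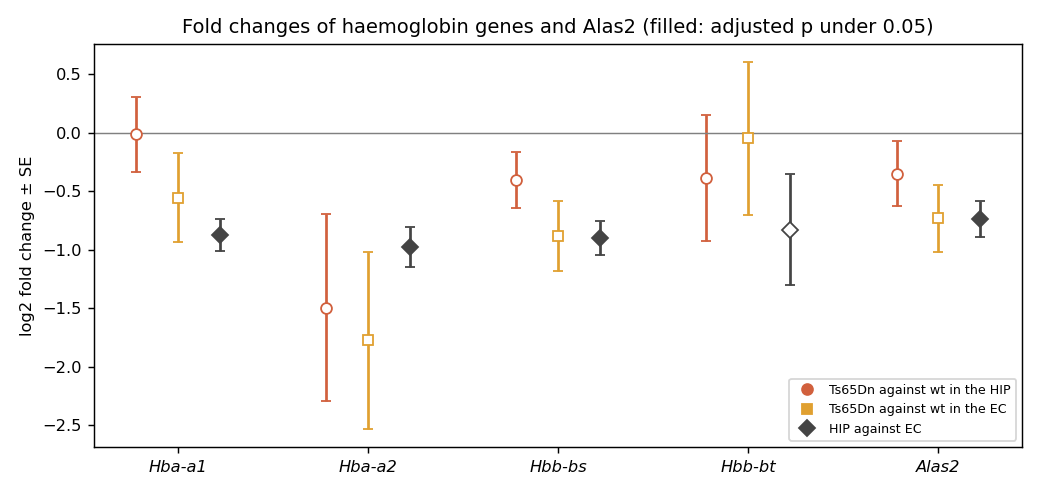
Log2 fold changes with SE for each gene between Ts65Dn and wt mice in the HIP (circles) and EC (squares) and between HIP and EC (diamonds, negative where lower in the HIP), with filled symbols for an adjusted p under 0.05. Only diamonds are filled, for Hba-a1, Hba-a2, Hbb-bs and Alas2.

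Alas2 went along with Hbb-bs from mouse to mouse, and over the 12 mice Hba-a1 did so less closely. Across the 24 libraries Hbb-bs varied 11.9-fold and Alas2 10.8-fold, yet there were 3.76 to 7.15 Alas2 counts for every 100 Hbb-bs counts (mean 5.35 ± 0.794 SD), a coefficient of variation of 14.8% against 67.3% for Hbb-bs and 56.7% for Alas2 CPM. For Hba-a1 this ratio was 37.1 ± 9.05 per 100 Hbb-bs counts. Over the 12 mice, Hbb-bs and Alas2 correlated with r = 0.97 and rho = 0.94 in the HIP (permutation p 1e-05, the smallest that the permutations can give, adjusted p 0.00026 for r and 0.00104 for rho). In the EC the values were r = 0.93 and rho = 0.84 (permutation p adjusted 0.00039 and 0.01404). Without the 2 mice farthest from the median of Hbb-bs, r was 0.95 and 0.77 in these regions. Within genotypes r was 0.94 and 0.98 in the HIP of wt and Ts65Dn mice, and 0.995 and 0.68 in their EC. The adjustment covered 26 relations, and 2 libraries of different regions come from each mouse.

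Hba-a1 and Hbb-bs correlated with r = 0.83 in the HIP and 0.88 in the EC (permutation p adjusted 0.00589 and 0.00176), with rho of 0.71 and 0.73 (adjusted 0.0685 and 0.0626), and with r of 0.51 and 0.65 without the 2 mice farthest from the median. This relation therefore rested partly on those mice in both regions. Hbb-bt and Hbb-bs had r = -0.29 and rho = -0.31 in the HIP (permutation p adjusted 0.652 and 0.661) and r = 0.57 and rho = 0.50 in the EC (adjusted 0.180 and 0.387). Without the 2 mice r was -0.10 and 0.62 in these regions. Within genotypes it was -0.45 and -0.30 in the HIP of wt and Ts65Dn mice, and 0.69 and 0.74 in their EC. Whether these values differ from those of Hba-a1 was not tested.

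**Figure D3:**
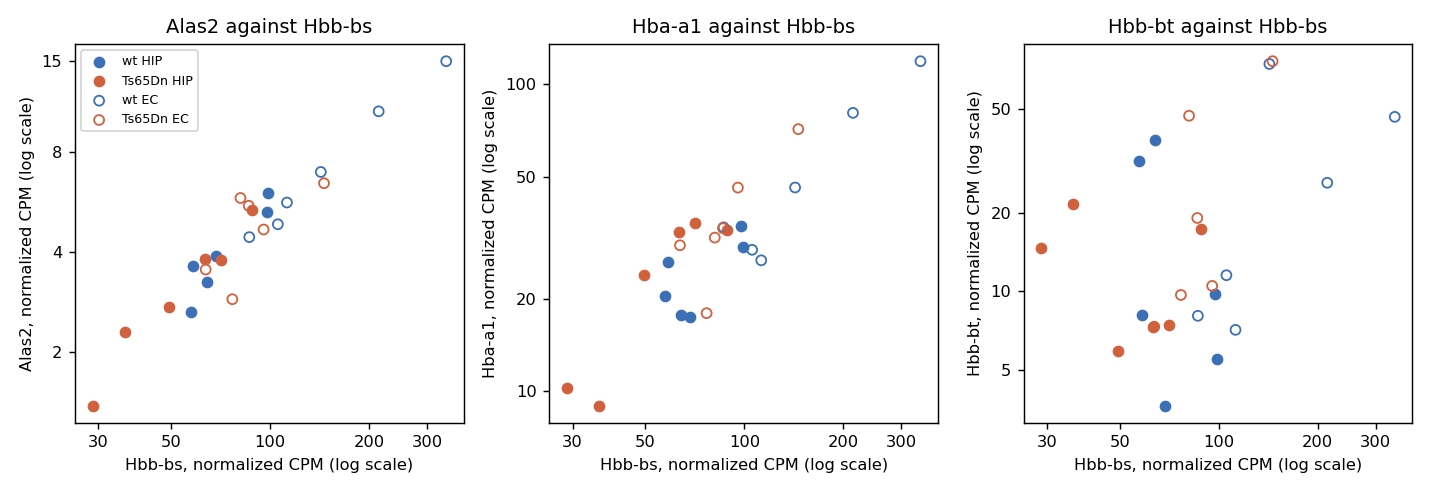
Alas2, Hba-a1 and Hbb-bt against Hbb-bs in the 24 libraries, in normalized CPM on log axes, with filled symbols for the HIP and open symbols for the EC. Alas2 and Hba-a1 rise along with Hbb-bs in both regions, and the Hbb-bt points have r of -0.29 in the HIP and r of 0.57 in the EC.

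Since Hba-a1, Hbb-bs and Alas2 varied together, the 250 bases before their RefSeq start (GRCm38.p6) are shown, with those of Hbb-bt for comparison. Capitals mark 4 short motifs searched on both strands, the GATA motif GATAA, the CACCC motif, the CCAAT box and the TATA-like motif ATATAA, which are known elements of globin promoters.
Hba-a1: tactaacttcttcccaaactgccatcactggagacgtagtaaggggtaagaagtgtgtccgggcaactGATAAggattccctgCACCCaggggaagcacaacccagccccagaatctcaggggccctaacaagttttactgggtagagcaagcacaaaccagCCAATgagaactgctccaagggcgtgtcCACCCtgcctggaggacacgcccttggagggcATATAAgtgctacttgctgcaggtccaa
Hbb-bs: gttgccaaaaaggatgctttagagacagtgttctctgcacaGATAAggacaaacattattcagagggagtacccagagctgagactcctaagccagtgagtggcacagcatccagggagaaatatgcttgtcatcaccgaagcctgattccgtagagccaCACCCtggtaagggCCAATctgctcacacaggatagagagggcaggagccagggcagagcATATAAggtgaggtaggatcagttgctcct
Hbb-bt: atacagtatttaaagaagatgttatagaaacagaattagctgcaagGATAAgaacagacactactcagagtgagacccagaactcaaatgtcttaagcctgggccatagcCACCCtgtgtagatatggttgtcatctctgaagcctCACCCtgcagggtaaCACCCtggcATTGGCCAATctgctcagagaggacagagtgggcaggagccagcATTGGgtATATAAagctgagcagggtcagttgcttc
Alas2: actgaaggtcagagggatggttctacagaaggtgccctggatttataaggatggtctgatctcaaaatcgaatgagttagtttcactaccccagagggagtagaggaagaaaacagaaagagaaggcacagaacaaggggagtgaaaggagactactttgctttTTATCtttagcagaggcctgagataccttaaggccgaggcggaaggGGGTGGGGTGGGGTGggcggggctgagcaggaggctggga
They span chr11:32283422-32283671 (plus strand), chr7:103827929-103828178 (minus), chr7:103813924-103814173 (minus) and chrX:150547167-150547416 (plus). The 4 motifs occurred together in each of the globin windows, and in 0.466% of 32851 RefSeq windows of this length. They were chosen as known elements of globin promoters, so finding them in globin windows was given in advance and is no result. The Alas2 window held GATAA and CACCC on the opposite strand and neither CCAAT nor ATATAA. Singly, GATAA occurred in 22.6%, CACCC in 52.0%, CCAAT in 33.9% and ATATAA in 9.10% of all windows. In Hbb-bs the TATA-like motif began 30 bases, the CCAAT box 76 bases and the CACCC motif 90 bases before the start, and in Hbb-bt they began at 29, 75 and 89 bases. The windows of Hba-a1 and Hba-a2 shared an unbroken run of 247 bases, whereas the longest run shared by Hbb-bs and Hbb-bt was 14 bases. These letters are a description of the sequence, and no binding was measured. The part of these windows in the joint variation of the genes was not tested.

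Hba-a2, the minor alpha chain gene by these counts, was near 0 in both regions of some mice. It had 103 to 250 counts in the 6 wt HIP libraries and 152 to 619 counts in the 6 wt EC libraries. The mice labelled Ts65Dn replicates 1, 2 and 3 had 3, 1 and 0 counts in the HIP and 2, 3 and 5 counts in the EC. Ts65Dn replicates 4, 5 and 6 had 48, 116 and 196 counts in the HIP and 194, 237 and 191 counts in the EC. Hba-a2 was thus near 0 in both regions of 3 mice labelled Ts65Dn, among them the one whose triplicated genes were at the wt level, and of no wt mouse, while Hba-a1 had 811 to 1975 counts in the same 6 libraries.

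The share of Hba-a2 in the counts of Hba-a1 and Hba-a2 fell into 3 ranges. It was 0% to 0.335% in the libraries of these 3 mice, 13.5% to 16.8% in both regions of 6 mice (4 wt and 2 Ts65Dn), and 31.6% to 35.3% in both regions of the other 3 mice (2 wt and 1 Ts65Dn). The HIP and EC of a mouse differed by 0.00183 to 3.22 percentage points, so the 2 regions of each mouse fell in the same range in 12 of 12 mice. The Wilson 95% interval, which covers counting error only, was 13.7% to 15.9% in the EC of wt replicate 2 (619 of 4196 counts) and 30.8% to 36.4% in the EC of wt replicate 4 (370 of 1104 counts). The HIP of the mouse labelled Ts65Dn replicate 3 had 0 of 950 counts, which allows a share of up to 0.316% by a limit of 3 counts and of up to 0.403% by the Wilson interval. These shares rest on the few stretches of sequence that tell the genes apart, whose part in the result was not tested.

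The beta pair was unlike the alpha pair in this. The share of Hbb-bt in the counts of Hbb-bs and Hbb-bt was 33.7% to 37.5% in 7 libraries and 5.06% to 18.2% in the other 17, with none between. It was high in 4 HIP and 3 EC libraries, yet a single mouse, Ts65Dn replicate 4, was high in both regions (33.7% and 36.7%). In 7 mice the regions differed by at most 2.95 percentage points, and in the other 5 by 23.9 to 29.0 points. In wt replicate 1 the share was 5.27% in the HIP (Wilson 95% interval 4.50% to 6.16%) and 34.3% in the EC (33.0% to 35.5%). In wt replicate 6 it was the other way, 37.2% in the HIP and 9.85% in the EC. Wt replicate 5 and Ts65Dn replicate 5 were high in the HIP alone, and the mouse labelled Ts65Dn replicate 3 in the EC alone. In these 5 mice the intervals of the regions did not overlap, and both genotypes had libraries in each range. Which Hbb haplotype each mouse carried, the same in its HIP and EC, is not given in the sources used here. Its part in the differences between mice was not tested.

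**Figure D4:**
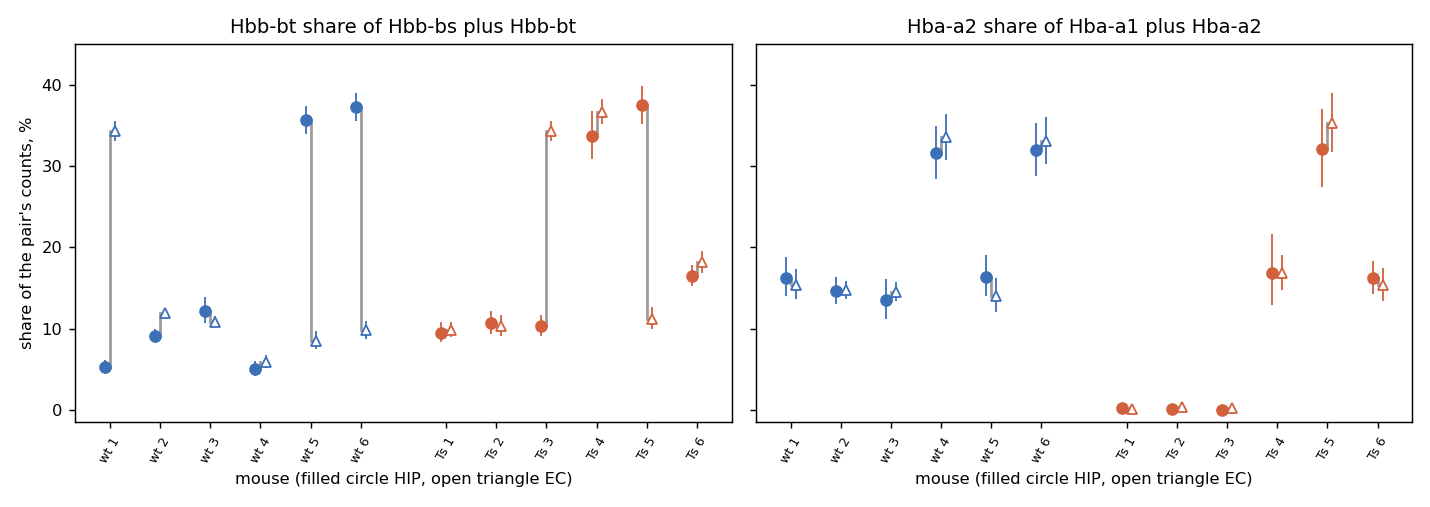
Share of Hbb-bt in the beta pair (left) and of Hba-a2 in the alpha pair (right), in percent of the pair's counts, for the HIP (filled circles) and EC (open triangles) of each mouse, with Wilson 95% intervals and a grey line joining the regions of a mouse. The alpha shares of a mouse lie together in each of the 12 mice, and the beta shares of 5 mice lie over 20 points apart.

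The pairing of the libraries was also checked over all tested genes. Deviations from the group means correlated best between the HIP and EC libraries of the same mouse in 12 of 12 mice (r of 0.178 to 0.426, against at most 0.141 with another mouse). The 5 mice with unlike beta shares were among these 12.

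Whether a mouse with more of a gene in the HIP also had more in the EC was tested over the 12 mice on the log2 CPM scale. Hba-a1 correlated between the regions with r = 0.71 and rho = 0.76 (permutation p 0.0108 and 0.00652, adjusted over 5 genes 0.0540 and 0.0326), and with r = 0.65 without the 2 mice farthest from the median. Hbb-bs had r = 0.55 and rho = 0.59 (permutation p adjusted 0.159 and 0.106), and Alas2 r = 0.49 and rho = 0.56 (adjusted 0.178 and 0.106). Hbb-bt had r = -0.21 and rho = -0.04 (permutation p adjusted 0.506 and 0.903). Hba-a2 was at or near 0 in both regions of 3 mice, so no pooled value is given, and over the other 9 mice r was 0.48 and rho 0.48 (permutation p adjusted 0.234 and 0.241). The rank correlation of Hba-a1 was the one value under an adjusted p of 0.05.

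Most erythroid genes outside the set were almost undetected. Of 17 further erythroid genes with a row, 12 had at most 10 counts in every library, among them Slc4a1 (the anion exchanger of the red cell membrane), with at most 9 counts, and Gata1 (the erythroid transcription factor), with at most 1. Klf1, the erythroid Krüppel-like factor, had at most 11. The embryonic alpha-type gene Hba-x and the beta-locus genes Hbb-bh0 and Hbb-bh2 had 0 counts in all 24 libraries. The embryonic beta-type genes Hbb-y and Hbb-bh1 had at most 5 and 1 counts in a library, and Hbq1a, a theta globin gene, had at most 37 and a log2 fold change between regions of -0.07 (adjusted p 0.855). In the 24 libraries Hbb-bs had 668 to 10316 counts. The 4 erythroid genes that could be tested were Bpgm, Slc25a37, Epor and Ermap, and which cells held their RNA was not tested. Of these, 2 were lower in the HIP, Ermap (-1.40 ± 0.21, adjusted p 1.63e-05) and Slc25a37 (-0.31 ± 0.05, adjusted p 3.24e-05). Bpgm was higher (0.16 ± 0.04, adjusted p 0.00112), and Epor was not called.

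The enzymes and carriers of haem synthesis other than Alas2 could all be tested and were called in both directions between regions. Of 11 tested, 4 were higher and 3 lower in the HIP, beside 35.5% higher and 32.9% lower of all tested genes. Their median log2 fold change was -0.04, beside 0.01 over all tested genes and -0.87 for the haemoglobin genes and Alas2. Alas1, the synthase of non-erythroid cells, had -0.04 ± 0.03 (adjusted p 0.315). Cpox, coproporphyrinogen oxidase, was higher in the HIP (0.68 ± 0.04, adjusted p 2.45e-10), and Alad, which joins aminolevulinate molecules to porphobilinogen, was lower (-0.48 ± 0.04, adjusted p 1.34e-08). Per kilobase of exon, Alas1 had 9.76 to 10.2 CPM in the 4 group means and Alas2 1.34 to 3.29.

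Of 12 genes that break down haem or handle haemoglobin and iron, 5 were higher and 7 lower in the HIP. The shares of all tested genes were 35.5% higher and 32.9% lower. Cd163, the macrophage receptor for haemoglobin bound to haptoglobin, was lower (-0.71 ± 0.14, adjusted p 0.000323), and Hmox1, the inducible haem oxygenase, was higher (0.46 ± 0.07, adjusted p 2.70e-05). Neuroglobin (Ngb), a globin of neurons, was lower in the HIP (-2.82 ± 0.23, adjusted p 9.59e-09), and cytoglobin (Cygb), a globin of fibroblasts and other cells, had 0.11 (adjusted p 0.0828). None of the tested genes of these lists was called between genotypes in either region.

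Some marker lists of other cells were also called lower in the HIP, beside the 32.9% of all tested genes that were, and others were called higher. Of 8 endothelial markers 7 were lower in the HIP (median log2 fold change -0.38), and their sum was 231 to 272 CPM in the wt HIP, 228 to 281 in the Ts65Dn HIP, 293 to 361 in the wt EC and 248 to 343 in the Ts65Dn EC. Of 5 platelet markers 4 could be tested and 3 were lower in the HIP, and their sum was 1.80 to 2.35, 2.07 to 4.07, 2.71 to 4.59 and 3.39 to 4.35 CPM in the same order of groups. Both neutrophil markers that could be tested, of 5, S100a8 (-0.93 ± 0.28, adjusted p 0.00692) and S100a9 (-0.74 ± 0.18, adjusted p 0.00140), were lower in the HIP. Of 6 mural markers 2 were lower and of 6 meningeal markers 2 were higher in the HIP, and 0 of 4 lymphocyte markers could be tested. All 6 choroid plexus markers were higher in the HIP (median log2 fold change 5.18), where they summed to 52.1 to 5083 CPM against 8.16 to 49.5 CPM in the EC. None of these markers had 0 counts throughout a group. The part of these cells in the lower level of haemoglobin genes in the HIP was not tested.

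From mouse to mouse, no relation of Hbb-bs with these lists passed an adjusted p of 0.05. With summed endothelial markers r was -0.06 and rho -0.21 in the HIP (permutation p adjusted 0.920 and 0.728), and r was 0.43 and rho 0.39 in the EC (adjusted 0.469 and 0.661). With platelet markers r was 0.20 and rho 0.04 in the HIP (permutation p adjusted 0.704 and 0.956), and r was 0.12 and rho -0.17 in the EC (adjusted 0.879 and 0.728). Without the 2 mice farthest from the median, r was -0.66 and 0.27 with endothelial and 0.14 and -0.48 with platelet markers, in the HIP and EC. Within a genotype r with platelet markers ranged from -0.68 to 0.94 over 6 mice. Libraries also differed in how short genes stood against long genes, by a median of -0.15 to 0.19 on the log2 scale, and this measure had r of 0.10 and rho of 0.38 with Hbb-bs in the HIP and r of 0.46 and rho of 0.20 in the EC (permutation p adjusted 0.879, 0.661, 0.413 and 0.728). Without the 2 mice, r with this measure was 0.69 and 0.38 in these regions. Within genotypes it was 0.77 and -0.05 in the HIP of wt and Ts65Dn mice, and 0.72 and 0.49 in their EC. Its part in these correlations was not tested. With GC content and length removed, 0 members were called between genotypes in the HIP.

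**Figure D5:**
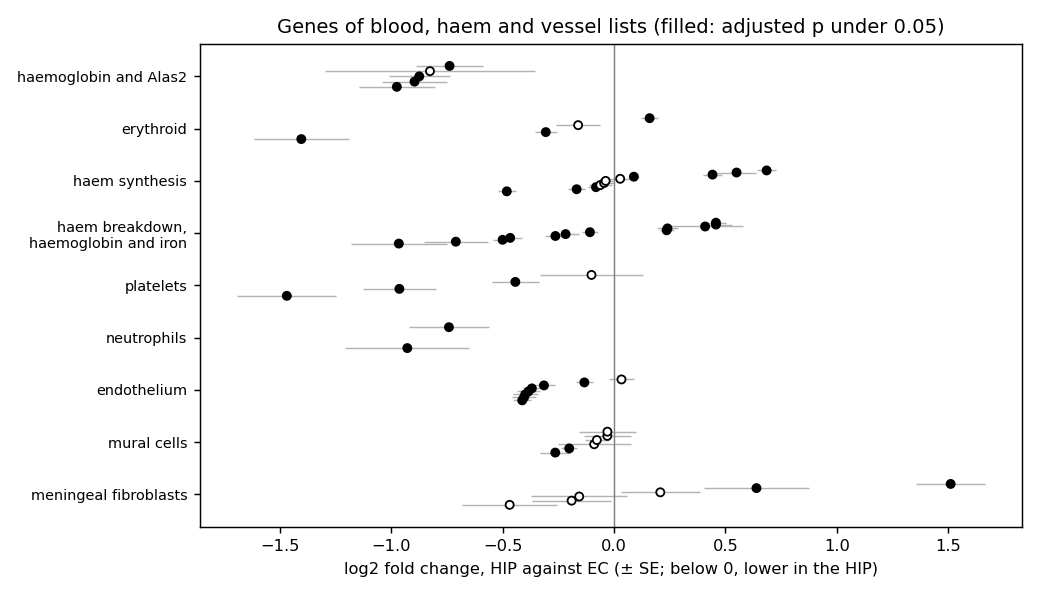
Log2 fold change with SE between HIP and EC for each tested gene of the lists of blood, haem and vessel genes, with values below 0 lower in the HIP and filled symbols for an adjusted p under 0.05. The haemoglobin genes and Alas2 lie between -0.98 and -0.74, most endothelial markers near -0.4, and genes of haem synthesis on both sides of 0.

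The genes outside the set whose deviations from the group means were most like those of Hbb-bs over the 24 libraries included Dcaf11 (r = 0.78), Fam213b (0.76), 2410015M20Rik (0.75) and Tkt (0.75). For Alas2 they were Unkl (0.82), Itgax (0.80, at a low mean level of 0.31 CPM), Ift140 (0.75), Dcaf11 (0.75) and Pgd (0.74). These are below the r of 0.93 between Hbb-bs and Alas2 and of 0.89 between Hbb-bs and Hba-a1. They are among the highest of 18109 genes over libraries of which 2 come from each mouse.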

How the data were processed

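The 24 RNA-Seq libraries came from both brain regions of 6 Ts65Dn and 6 wt males and were grouped by the sample labels. The authors aligned single-end reads of 50 bases to GRCm38 (Ensembl release named v99) with Hisat2 and deposited raw counts per gene from HTSeq-count, without normalization. The labels describe a stranded mRNA kit, whereas the methods describe removal of ribosomal RNA and then polyA RNA. The authors' tables of their own comparisons (DESeq2 and FCROS fold changes, scores and p-values) were not used. Of the 55385 genes 99.6% matched GENCODE vM21, of the same build, and 0 rows named no gene.

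Counts were tested with edgeR 4.0.16 (R 4.3.3) after filterByExpr and TMM scaling, with a Benjamini-Hochberg adjusted p under 0.05 as the threshold, within each region for genotype and with a term for each mouse for region and interaction. CPM are counts-per-million of the library total times its TMM factor, log2 CPM have a prior count of 2, and shares have Wilson 95% intervals (statsmodels 0.14.6). Correlations used 100000 permutations, two-sided, or all orders for 6 mice (numpy 2.4.6, Python 3.11.15). Promoter windows are from RefSeq, and stretches of 50 bases were compared with all GENCODE transcripts on both strands. p-values between genotypes measure the spread between mice within a region. Those for region and interaction measure how the difference between regions varies between mice, and those of correlations come from permutations of the mice. Totals of 23128589 to 40476492 counts set the precision.

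Alternatives were DESeq2 1.42.0, its size factors, no filter, at least 10 counts in every sample, a replicate block or none, summed pairs, each genotype alone and each mouse left out. Removal of GC content and length was chosen after seeing the data, as were the ranges used to describe shares. The genes and lists were chosen with earlier results of these data known. Named genes are the 5 members, genes of the lists, and the 5 genes of highest r with Hbb-bs and Alas2, of which 1 is not reported here. On simulated data with 200 genes changed 2-fold, 163 were recovered in the HIP, 175 in the EC, 187 between regions and 150 in the interaction, with 12, 10, 11 and 12 false calls. The HIP and EC libraries of a number come from the same mouse by their labels, and correlated best with each other in 12 of 12 mice.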

Additional observations from a re-analysis of the deposited data

Results flagged for a closer look

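Of 28 sets of 6 libraries checked for a value far from the rest, 1 was flagged, where chance flags about 1 set in 20. The share of Hbb-bt in the beta pair was 34.3% in the EC of wt replicate 1, against 5.96% to 12.0% in the other 5 wt EC libraries. The gap to the next library was 0.788 of the range of the group.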

How the results depend on the processing

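The number of members called was 0 of 5 between genotypes in both regions and in the interaction under every alternative run. Between regions 4 of 5 were called under most, with Hba-a2 lost without the block for mouse (-0.95) and Hbb-bt gained in the cases given above. The direction of Hba-a1 in the HIP turned with single mice left out (-0.15 to 0.16). So did that of Hbb-bt in the HIP (-0.62 to 0.065), in the EC (-0.63 to 0.49, and 0.023 with the replicate block) and in the interaction (-0.57 to 0.66, and -0.35 with no replicate block), and that of Hba-a2 in the interaction (-0.36 to 0.44). All of these were uncalled. The replicate block between genotypes joins mice that share a number alone, with r of -0.20 to 0.17 between them, and it changed no member call.

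Between genotypes, 181 genes of the HIP were called, against 662 by DESeq2, 29 with the replicate block, 65 with GC content and length removed and 54 to 318 with a mouse left out. In the EC, 426 were called, against 1141 by DESeq2, 275 with no filter, 36 with the block, 131 with GC content and length removed and 90 to 685 with a mouse left out. In the interaction 37 were called with no filter, and 0 otherwise. Between the HIP and EC, r was 0.74 for Hba-a1 in Ts65Dn mice alone (permutation p 0.075), 0.72 for Alas2 without the 2 mice farthest from the median, and 0.076 for Hbb-bt without them and 0.023 in Ts65Dn mice alone. The causes were not tested. With at least 10 counts in every sample Hba-a2 was not tested. Low counts limit Alas2 (32 to 450 per library) and Hba-a2 most.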

Other observations

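The 20 genes whose levels followed those of Hba-a2 most closely over the 24 libraries, by the size of r after subtracting the region means, were looked up after their values were seen. Of these, 10 lie on chromosome 11, which holds Hba-a2, beside 7.57% of all tested genes, and 8 start within 30 Mb of it, beside 2.55% of all tested genes. Ccm2 (r = 0.87, 25.7 Mb away) and Bod1 (r = 0.84, 0.631 Mb away) rose with Hba-a2, and Stk10 (r = -0.83, 0.237 Mb away) ran opposite to it. These correlations rest on 12 mice, with 3 of them at or near 0 for Hba-a2, and each mouse gives 2 libraries.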
